A study of Mus musculus with 12 samples.

Results

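The constitutive proteasome subunits were the protein-coding genes of the count table whose symbol began with Psma, Psmb, Psmc or Psmd and a digit, without the inducible subunits Psmb8, Psmb9 and Psmb10. The rule found 37 genes of 57278 in the table, 21700 of which were protein-coding. Of the 37, 16 encode the 20S core (8 alpha and 8 beta genes) and 17 the 19S cap (6 ATPases and 11 non-ATPase subunits). The other 4 share the symbol but are not part of the finished particle: Psmd5, Psmd9 and Psmd10 encode assembly chaperones of the cap, and Psmc3ip a factor of meiotic recombination. The study asked what the secreted glycoprotein DKK3 does in pancreatic cancer, and here Dkk3-null mouse tumor cells were given back recombinant DKK3 (rDKK3). Bulk RNA was sequenced from 3 cell lines, DDKC_9750, DDKC_9790 and DDKC_9804, called A, B and C below. All of them, untreated and treated alike, carried homozygous loss of Dkk3 in every cell of the body and a Cre recombinase under the Ptf1a promoter, which is active in pancreatic progenitors and acinar cells. Each line was derived from tumors of this genotype and was sequenced untreated and with rDKK3 in 2 libraries per condition, 12 libraries in all. The dose and duration of rDKK3 for the sequenced cells are not given in the sources used here.

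The 20S core is a barrel of stacked rings that holds the proteolytic chamber. The outer rings are built from alpha subunits, which gate the entrance. The inner rings are built from beta subunits, of which Psmb5, Psmb6 and Psmb7 carry the chymotrypsin-like, caspase-like and trypsin-like active sites. The 19S cap binds ubiquitin-tagged proteins, removes the ubiquitin and threads the substrate into the core with its ring of Psmc ATPases. In cells with impaired proteasomes the transcription factor encoded by Nfe2l1, once cut by the protease Ddi2, raises the genes of both parts together.

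The untreated libraries held 7520741 to 24541083 counts assigned to genes and the treated libraries 3822987 to 11567095, the treated ones being shallower in each line and most so in A and C. A count of 3 corresponded to 0.122 to 0.785 CPM (a gene's counts scaled to the size of its library), and such limits cover counting error only. For all 3-count limits and the markers in this paragraph, that size was the total count, while for the proteasome genes and the genes around them it was the total adjusted by TMM factors, which correct for differences in RNA composition between libraries. Dkk3 had 1 count in 1 treated library of A and none elsewhere. The summed epithelial markers (Krt8, Krt18, Krt19, Epcam, Cdh1) were at 4213 to 8799 CPM untreated and 3527 to 7573 CPM treated, almost all of it keratin and Cdh1, while Epcam was low. The acinar markers Cpa1, Pnlip and Ptf1a were at 0 in every library and Cela1 carried all of the acinar sum, at most 13.0 CPM. The epithelial sum was lower with rDKK3 in each of the 6 same-numbered pairs, as was each of the 3 keratins, while Cdh1 was higher in A (851 and 801 CPM untreated, 1126 and 1066 treated) and C (313 and 295 untreated, 364 and 346 treated). Summed leukocyte markers, with Cd3e and Adgre1 at 0, were higher with rDKK3 in each of these pairs: 8.51 and 10.9 CPM untreated and 9.42 and 11.7 treated in A, 26.5 and 28.3 untreated and 47.7 and 44.5 treated in B, and 9.74 and 10.3 untreated and 18.5 and 16 treated in C, nearly all of it Cd68 and Csf1r. Summed fibroblast markers lay between 5.16 and 13.8 CPM. They were lower with rDKK3 in A (12.9 and 13.8 CPM untreated, 5.755 and 9.36 treated) and higher in B (7.18 and 9.29 untreated, 12.2 and 11.2 treated). In C they overlapped, at 6.21 and 6.81 untreated and 6.66 and 5.16 treated. Summed endothelial markers, mostly Kdr, were at 8.02 and 7.70 CPM untreated and 20.8 and 15.2 treated in C, and at most 14.7 CPM in A and B, where they were lower with rDKK3. The part of these marker levels in the results was not tested.

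The 2 libraries of a line and condition carry a lower and a higher library number in their labels, and 4 of the core subunits were well above 0 in the comparison of the higher with the lower number. Psma5, Psma3, Psmb3 and Psmb5 were higher in the libraries with the higher number by 0.70, 0.59, 0.50 and 0.37 on the log2 scale (adjusted p = 3.67e-76, 3.06e-68, 1.82e-40 and 1.14e-13 in edgeR's quasi-likelihood test over 12 libraries). No other tested gene of the rule moved by more than 0.3 in either direction. Of all genes, 9.61% were higher in the higher numbers by more than 0.3. At an adjusted p under 0.05 the 19S subunits Psmd11 and Psmd2 were also higher in the higher numbers, by 0.07 and 0.04, against 10.4% of all genes. Another 7 members were lower there, Psma6, Psmb2, Psmc6, Psmd1, Psmd5, Psmd12 and Psmd14, with log2 differences between -0.11 and -0.07, against 13.4% of all genes. The coding sequences of the members were aligned with the mouse genome (GRCm39), outside the gene itself. The same 4 genes were the ones with most of their coding sequence repeated, base for base over stretches of 50 bases, the read length, in a copy elsewhere. That held for 85.6% of the 50-base windows of Psma3, 79.1% of Psma5, 70.7% of Psmb3 and 60.7% of Psmb5, and no other member exceeded the 38.96% of Psma4. The relation was noticed in these data, and its cause was not tested.

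To show how close the copies are, 50 coding bases of Psma5 and of Psmb5 are printed beside their copies, 5′ to 3′ in GRCm39, with a mismatch in capitals. The Psma5 copy on chromosome 10 aligned over 723 bases at 98.9% identity and is annotated as Psma5-ps. The Psmb5 copy on chromosome 7 aligned over 792 bases at 99.0% identity and is annotated as Gm3375. The printed bases of Psma5 and its copy have 0 mismatches, and those of Psmb5 have 1.
Psma5 coding bases 361 to 410: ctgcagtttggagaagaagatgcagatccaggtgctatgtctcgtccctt
Psma5 copy, chr10:85149793-85149842, plus strand: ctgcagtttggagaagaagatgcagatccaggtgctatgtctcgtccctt
Psmb5 coding bases 396 to 445: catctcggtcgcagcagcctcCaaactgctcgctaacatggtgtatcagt
Psmb5 copy, chr7:3231237-3231286, plus strand: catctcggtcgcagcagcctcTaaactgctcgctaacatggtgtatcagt
Levels of Psma3, Psma5, Psmb3 and Psmb5 are therefore uncertain, since reads shared with a copy can be assigned to either place or dropped. The annotated copies held counts of their own: Psma5-ps had 13 over the 6 libraries with the lower number and 48 over the 6 with the higher, which are deeper, and Gm3375 had 764 and 1570. Comparisons of rDKK3 with untreated cells are balanced over the library numbers, with 1 library of each in every line and condition.

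**Figure D1:**
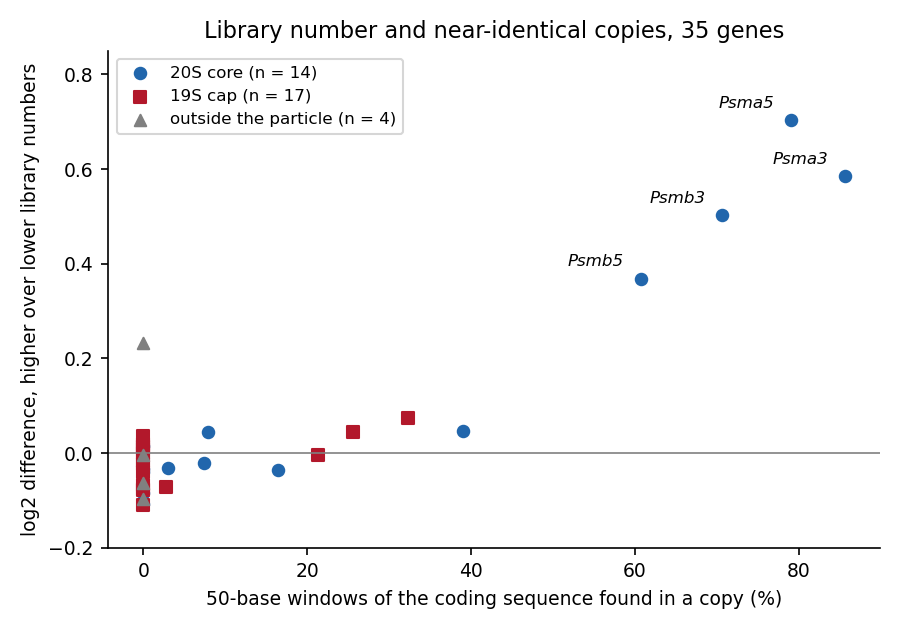
Each point is 1 of the 35 tested genes. The x axis gives the percentage of 50-base windows of its coding sequence found in a copy elsewhere in GRCm39, and the y axis the log2 difference of the libraries with the higher over the lower library number. The 4 labelled core subunits, from 60.7% to 85.6%, are at 0.37 to 0.70, and the points at 38.96% and below lie under 0.3.

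Once such a shift is allowed for, the 2 libraries of a line and condition differed by less than the sampling noise of their counts (mean deviance per degree of freedom 0.78 over 12979 genes, and 0.80 over the 35 tested genes of the rule, against 6.44 and 7.17 without that shift). They were therefore summed and counted as 1 sample, which leaves 3 lines as replicates, each seen untreated and treated. Psma8, the testis-specific alpha subunit, had 0 counts in every library, which allows at most 0.122 to 0.785 CPM depending on the library, and Psmb11, the thymus-specific beta subunit, had 1 count in all. The remaining 35 genes passed the filter on low counts.

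With rDKK3, the 14 tested subunits of the 20S core were lower in the fit over the 3 lines, none past the threshold, and the 19S cap was little moved. The median log2 fold change of the core was -0.19, from -0.44 for Psma5 to -0.09 for Psma4, beside -0.01 over all 15214 genes tested. For the 17 cap subunits the median was -0.05, with 13 lower and 4 higher. With the line as a block, edgeR's quasi-likelihood test called 0 of the 35 members at an adjusted p under 0.05, against 1 gene (0.00657%) of all tested. At an unadjusted p under 0.05, 1 core subunit (Psma5) and 0 cap subunits were lower, against 5.13% of all genes. DESeq2 on the same sums also called 0 members, against 96 of all 15214 genes tested. These are levels of RNA in bulk cultures, where fewer cells of a kind and less RNA per cell cannot be told apart.

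The direction was shared by the lines. Of the 14 core subunits, 13 were lower with rDKK3 in all 3 lines, against 18.2% of all genes tested, and the exception was Psmb3, at 0.01 in A, -0.09 in B and -0.36 in C. Only 3 of the 17 cap subunits (Psmd6, Psmd13 and Psmd14) were lower in all 3 lines, close to that background, and 0 members of either part were higher in all 3, against 14.7% of all genes. The median of the core was -0.08 in A, -0.23 in B and -0.27 in C. That of the cap was -0.06, 0.01 and -0.09. The median of the core minus that of the cap was -0.02 in A, -0.23 in B and -0.18 in C. This difference between the parts was not tested.

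**Figure D2:**
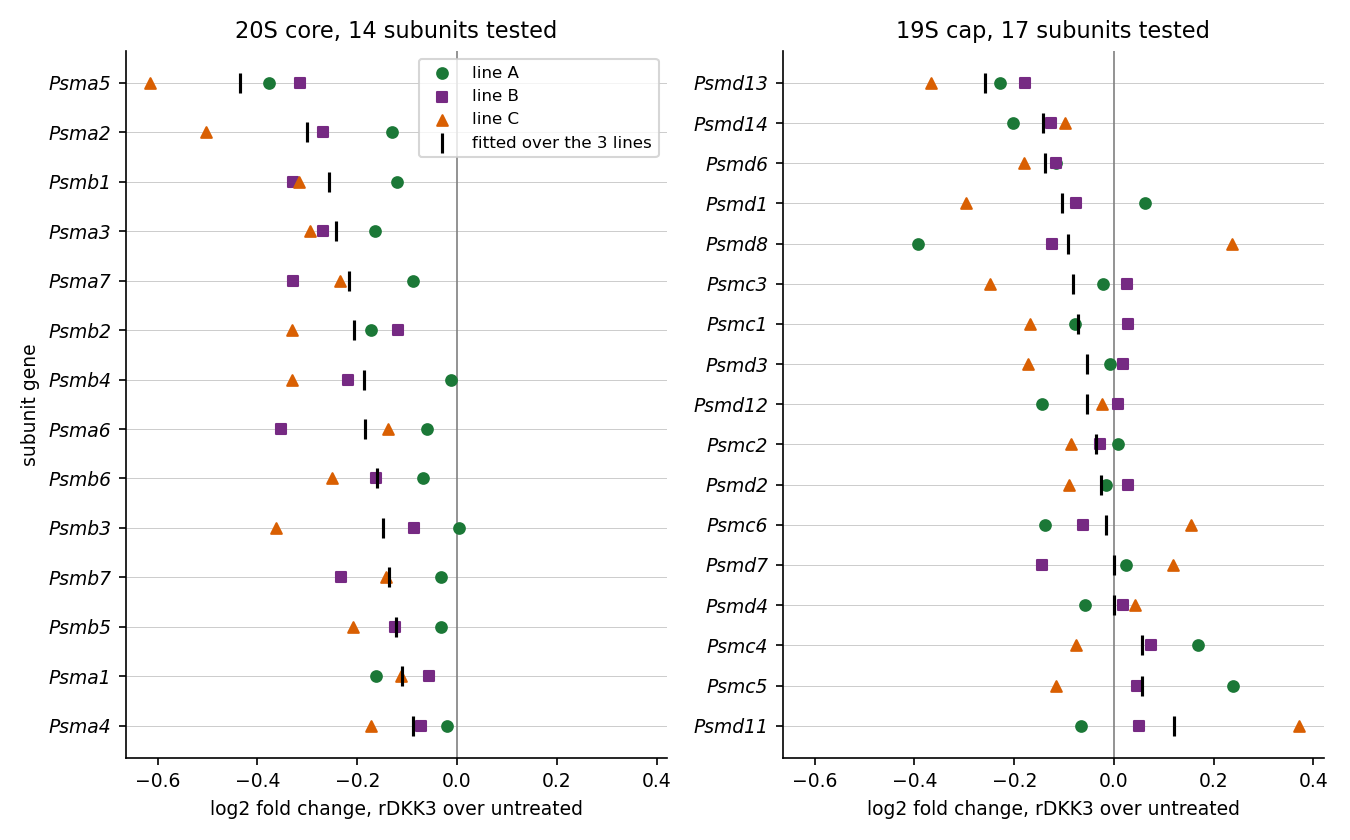
Each row is 1 subunit gene, the x axis is the log2 fold change of rDKK3 over untreated cells, the colored points are lines A, B and C (2 libraries summed) and the black bar is the value fitted over the 3 lines. In the left panel 13 of 14 core subunits have all 3 points below 0, and in the right panel 3 of 17 cap subunits do.

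The core subunits are short, and genes of their length were also lower. Their coding sequences run from 603 to 831 bases (median 741), those of the cap from 930 to 2859 (median 1254). The 1316 tested protein-coding genes of 603 to 831 coding bases took a median log2 fold change of -0.10, with -0.04 in A, -0.11 in B and -0.18 in C, and 69.0% of them were lower. Of all 1316, 27.8% were lower in each of the 3 lines. The 6942 genes in the length range of the cap had a median of 0.01 and 48.7% of them were lower. The core thus stood at -0.19 beside -0.10 for genes of its length, and the part of length in its values was not tested.

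Summed over its 14 subunits, the core made up 1403 and 1468 CPM in the lower-numbered and higher-numbered untreated libraries of A and 1289 and 1367 CPM in the treated ones. In B the sums were 1477 and 1581 CPM untreated and 1261 and 1354 CPM treated. In C they were 1318 and 1415 CPM untreated and 1087 and 1173 CPM treated. Both treated libraries lay below both untreated ones in every line. The ratio of the core sum to the cap sum was lower in the treated library of each of the 6 same-numbered pairs. It went from 0.643 to 0.632 and from 0.685 to 0.678 in A, from 0.720 to 0.638 and from 0.778 to 0.678 in B, and from 0.615 to 0.510 and from 0.656 to 0.557 in C. The change was small in A, where the untreated and treated ratios overlapped across library numbers, and did not in B and C. The sum of the 10 core subunits without the 4 that were higher with the library number went from 1173 and 1138 CPM to 1090.1 and 1071 CPM in A, from 1236 and 1214 to 1046 and 1037 CPM in B, and from 1114 and 1106 to 927 and 929 CPM in C. The median log2 fold change of those 10, a choice made after seeing the data, was -0.19, as for all 14.

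**Figure D3:**
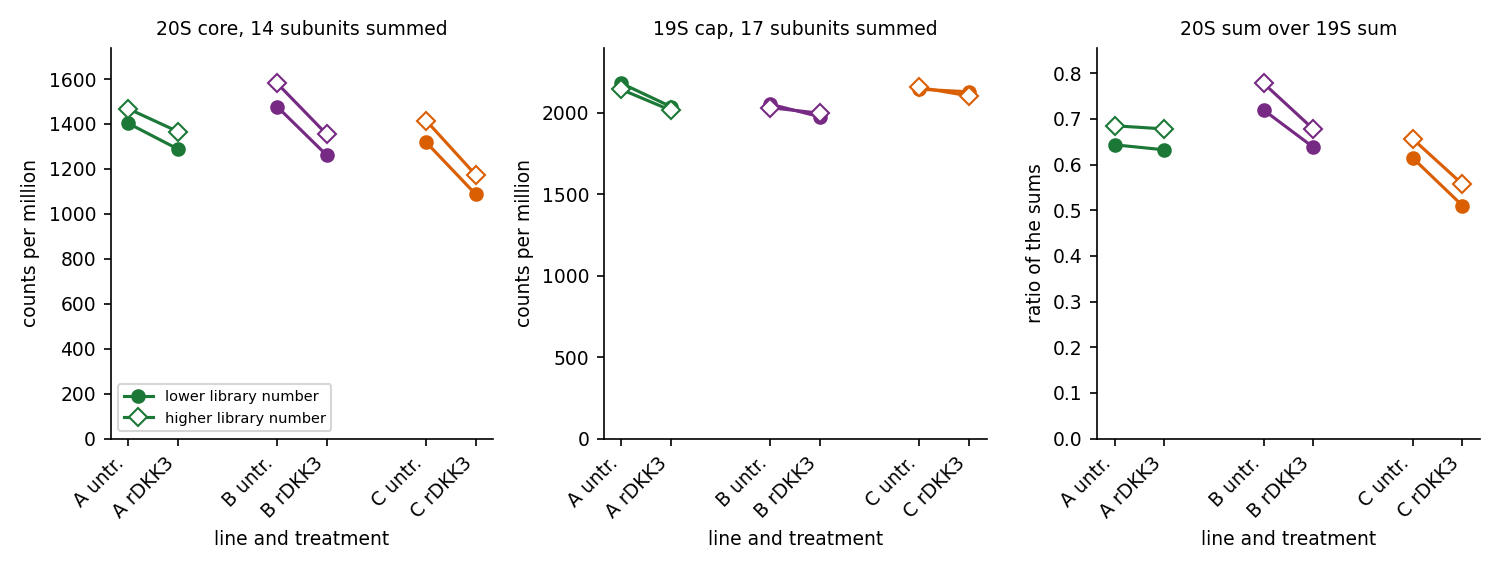
The left and middle panels show the summed CPM of the 14 core and 17 cap subunits, and the right panel their ratio, in each library by line and treatment. Lines join the untreated and treated libraries of the same library-number class, filled for lower and open for higher, and the ratio drops from 0.615 to 0.510 and from 0.656 to 0.557 in C.

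The 3 catalytic subunits were lower in each line by small amounts. Psmb6 (chr11:70416193-70418684) was at 97.9 and 91.2 CPM untreated and 89.0 and 88.6 CPM treated in A, 103 and 105 untreated and 93.0 and 93.4 treated in B, and 109 and 105.5 untreated and 90.01 and 89.5 treated in C. Its treated libraries lay below the untreated ones in every line, and its log2 fold change was -0.16 (SE 0.10, adjusted p = 0.692 in edgeR). Psmb7 (chr2:38478048-38534099) was at 94.0 and 94.1 CPM untreated and 92.7 and 90.3 treated in A, 113 and 117 untreated and 99.0 and 97.4 treated in B, and 101 and 109 untreated and 91.7 and 99.5 treated in C. The groups again did not overlap within a line, with a log2 fold change of -0.14 (SE 0.11, adjusted p = 0.731 in edgeR). Psmb5 (chr14:54851576-54855479), the main target of clinical proteasome inhibitors, was at 32.6 and 43.7 CPM untreated and 33.7 and 41.2 treated in A, 29.5 and 39.9 untreated and 30.9 and 35.1 treated in B, and 22.5 and 30.5 untreated and 21.1 and 26.03 treated in C. Its libraries were set apart by library number more than by treatment and overlapped in every line, with a log2 fold change of -0.12 (SE 0.12, adjusted p = 0.783 in edgeR).

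Among the 4 remaining beta subunits, which are structural, Psmb1, Psmb2 and Psmb4 had log2 fold changes of -0.26, -0.21 and -0.19, and Psmb3 one of -0.15. Psmb4 was below 0 in each line, at -0.01 in A, -0.22 in B and -0.33 in C. Psmb1, at 158 ± 11.8 CPM untreated and 132.5 ± 10.4 CPM treated (SD, n = 3 lines), was the beta subunit with the lowest log2 fold change.

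The alpha ring held both ends of the range of the core. Psma5 (chr3:108164242-108187290) was at 58.6 and 93.6 CPM untreated and 41.7 and 73.6 treated in A, 88.7 and 147 untreated and 75.9 and 120 treated in B, and 51.4 and 81.2 untreated and 31.9 and 55.8 treated in C. Each treated library lay below the untreated library of the same number class, although the classes made the groups overlap in every line. The log2 fold change was -0.44 (SE 0.11, adjusted p = 0.597 in edgeR), or 26.03% lower. Psma2 (chr13:14787825-14848821) was at 126 and 125 CPM untreated and 111 and 115 treated in A, 111 and 103 untreated and 87.5 and 87.1 treated in B, and 112 and 107 untreated and 77.5 and 75.6 treated in C. The treated libraries were lower without overlap in each line, and most clearly in C (log2 fold change -0.30, SE 0.12, adjusted p = 0.601 in edgeR; -0.13 in A, -0.27 in B and -0.50 in C).

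At the other end, Psma1 (chr7:113863841-113875353) was at 116 and 107 CPM untreated and 97.8 and 97.3 treated in A, 108 and 111 untreated and 107 and 105 treated in B, and 98.1 and 95.9 untreated and 92.8 and 87.2 treated in C. Its difference was clearest in A (-0.16) and smallest in B (-0.06), an order unlike that of the core's median. Psma4 (chr9:54858074-54865314) was at 114 and 115 CPM untreated and 106 and 116 treated in A, 87.6 and 83.6 untreated and 80.4 and 80.3 treated in B, and 84.2 and 92.3 untreated and 76.2 and 81.5 treated in C. Its libraries overlapped in A and its log2 fold change of -0.09 (SE 0.10, adjusted p = 0.817 in edgeR) was the closest to 0 in the core. Psma3, Psma6 and Psma7 lay between, at -0.24, -0.18 and -0.22.

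Taking the libraries one by one, both treated libraries were below both untreated ones in every line for 8 of 14 core subunits and 2 of 17 cap subunits, against 8.52% of all genes. When the 12 libraries entered edgeR as separate replicates with the line, 7 core subunits were called lower (Psma2, Psma6, Psma7, Psmb1, Psmb2, Psmb4 and Psmb6) and 2 cap subunits (Psmd13 and Psmd14), against 10.1% of all genes called lower and 7.95% called higher. With the library number in that model, Psma3, Psma5 and Psmd6 joined them, 9 and 3 in all, against 11.9% of all genes. These fits measure the response against the spread between libraries of the same sample and say nothing of other lines.

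In the 19S cap, the median log2 fold change was -0.03 for the ATPase ring and -0.05 for the non-ATPase subunits. Psmd13 (chr7:140461881-140478556), the lid subunit Rpn9, had the lowest value. It was at 80.5 and 78.5 CPM untreated and 67.1 and 67.1 treated in A, 65.0 and 68.6 untreated and 57.9 and 60.2 treated in B, and 75.8 and 76.9 untreated and 61.8 and 57.8 treated in C. The treated libraries were lower without overlap in each line, as in most of the core (log2 fold change -0.26, SE 0.11, adjusted p = 0.616 in edgeR). Psmd14 (chr2:61542038-61630720), the deubiquitinase Rpn11 that strips ubiquitin chains from the substrate, was at 99.1 and 96.4 CPM untreated and 85.9 and 82.7 treated in A, 80.3 and 78.4 untreated and 75.3 and 70.02 treated in B, and 112 and 104 untreated and 102 and 97.6 treated in C. It too was lower without overlap, at -0.14 (SE 0.10, adjusted p = 0.714 in edgeR). Of the scaffolds at the base of the cap, Psmd2 (Rpn1) was at 272 ± 1.82 CPM untreated and 267 ± 10.3 CPM treated (SD, n = 3 lines), and Psmd1 (Rpn2) at 134.5 ± 7.61 and 126 ± 19.1 CPM. The fold changes of both were within a range of -0.10 to 0.06 that also held the 6 ATPases and the lid subunits Psmd3, Psmd7, Psmd8 and Psmd12.

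The cap subunits with the highest values differed in direction between lines. Psmd11 (chr11:80319441-80364074), the lid subunit Rpn6, was at 101 and 106 CPM untreated and 97 and 99.6 treated in A, 111 and 109 untreated and 105 and 118 treated in B, and 130.3 and 143 untreated and 180.02 and 179.5 treated in C. It was lower without overlap in A (-0.07), overlapped in B and was higher without overlap in C (0.37), and its value over the 3 lines was 0.12 (SE 0.13, adjusted p = 0.801 in edgeR), or -0.01 without C. Psmc5 (chr11:106146980-106153946), the ATPase Rpt6, was at 73.1 and 73.3 CPM untreated and 81.7 and 88.3 treated in A, 64.8 and 64.1 untreated and 64.2 and 67.4 treated in B, and 77.0 and 75.1 untreated and 68.7 and 70.5 treated in C. It was thus higher without overlap in A (0.24) and lower without overlap in C (-0.12), with a value over the lines of 0.06 (SE 0.12, adjusted p = 0.898 in edgeR), or -0.03 without A.

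Whether the response depended on the line was tested as an interaction of line and treatment over the 12 libraries in edgeR, which takes the libraries as separate replicates and so measures the lines against library noise. It called 13 of the 35 members, against 49.3% of all genes, and with the library number in the model 22 of 35, against 61.9%. Of the 13, 4 were in the core (Psma2, Psma7, Psmb1 and Psmb4) and 7 in the cap. In the core these were differences of size, with each subunit lower in A, B and C. In the cap the sign differed. Psmd8, the lid subunit Rpn12, was at 337 and 335 CPM untreated and 252 and 255 treated in A, 275 and 277 untreated and 245 and 257 treated in B, and 219.6 and 236 untreated and 271 and 273 treated in C. It was lower without overlap in A and B and higher without overlap in C (log2 fold changes -0.39, -0.12 and 0.24, interaction adjusted p = 5.39e-05). Psmd10, the assembly chaperone gankyrin, showed the opposite order: 37.3 and 35.8 CPM untreated and 49.5 and 42.6 treated in A, 32.5 and 31.1 untreated and 30.2 and 27.8 treated in B, and 31.0 and 32.6 untreated and 19.2 and 16.7 treated in C. Its log2 fold changes were 0.33, -0.13 and -0.86 (interaction adjusted p = 1.2e-04 in edgeR). The other chaperones, Psmd5 and Psmd9, had values over the lines of -0.02 and -0.15, and Psmc3ip one of 0.10.

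**Figure D4:**
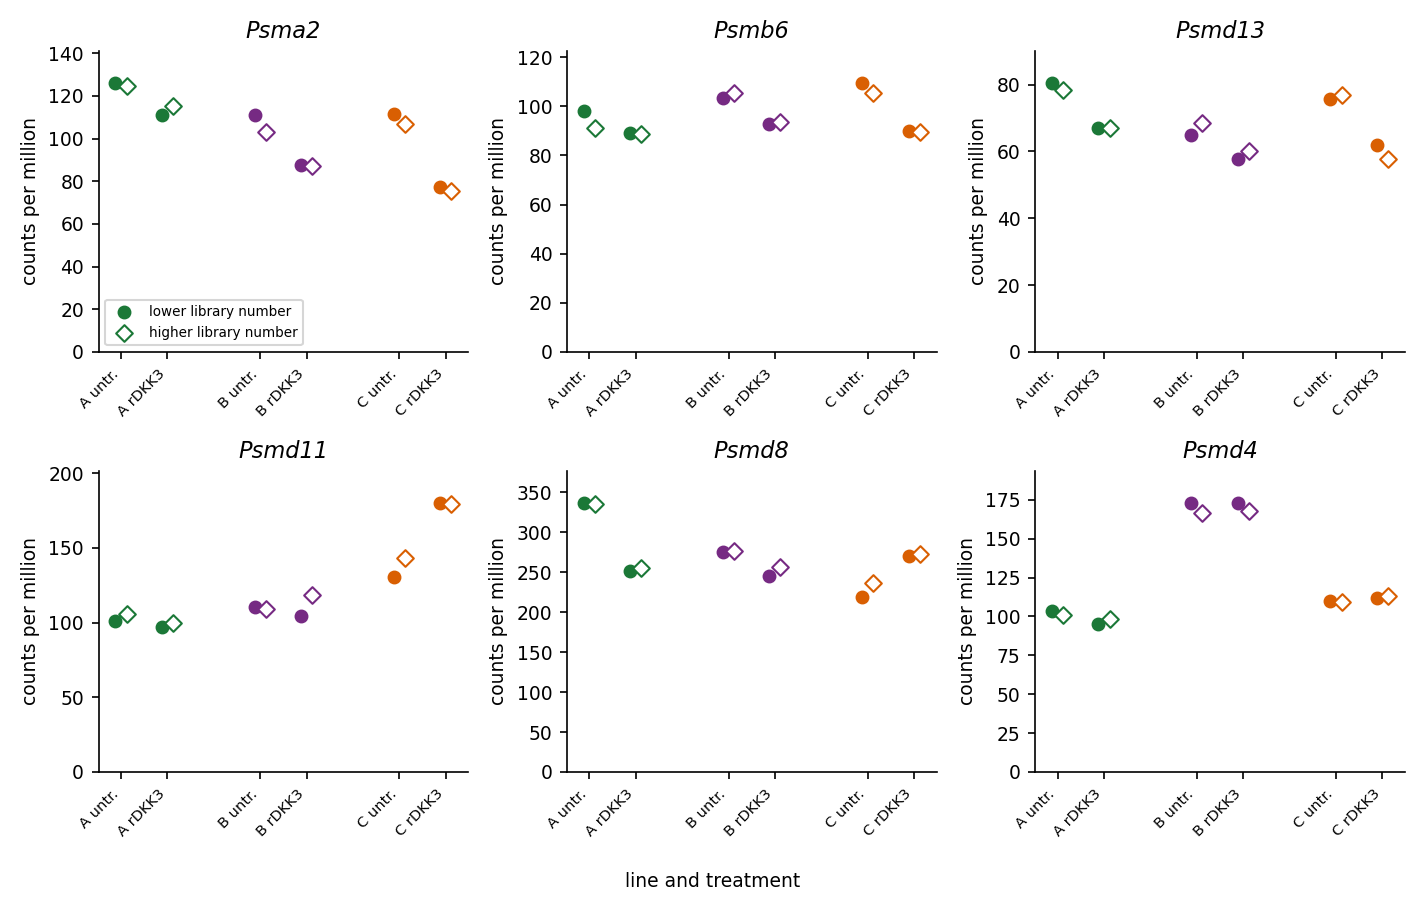
CPM in every library for 6 subunits, by line and treatment, with filled points for the lower and open points for the higher library number. Psma2, Psmb6 and Psmd13 are lower with rDKK3 in each line, Psmd11 is higher in C, Psmd8 is lower in A (-0.39) and higher in C (0.24), and Psmd4 differs by line only in level.

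Between the lines themselves few proteasome genes were called on the summed counts. The lines differed in 3 of the 35 members at an adjusted p under 0.05 in edgeR's quasi-likelihood F test on the sums, against 32.2% of all genes, and the median range over the 3 lines was 0.25 on the log2 scale for the members and 0.74 for all genes tested. The 3 were Psma5, Psmd4 and Psmd6. Psma5 was highest in B, by 0.72 over A and 1.00 over C (adjusted p = 0.0137). Psmd4 (chr3:94940005-94949925), which encodes the ubiquitin receptor Rpn10, was at 103 and 101 CPM untreated and 95.2 and 98.4 treated in A, 173 and 166 untreated and 173 and 168 treated in B, and 109.9 and 109 untreated and 112 and 113 treated in C. B stood above A by 0.76 and above C by 0.61 with no overlap (adjusted p = 0.0186 in edgeR), while its log2 fold change with rDKK3 was 0.00 (SE 0.10). Psmd6 (chr14:8348779-8357589), the lid subunit Rpn7, was at 77.0 and 74.3 CPM untreated and 74.4 and 65.5 treated in A, 48.3 and 44.3 untreated and 43.1 and 41.0 treated in B, and 61.8 and 61.0 untreated and 54.5 and 53.6 treated in C. The order A, C, B held in both conditions (adjusted p = 0.028 in edgeR). Without B, 0 members were called between the remaining lines, beside 9.63% of all genes, and without A 7, beside 33.3%. With the 12 libraries as separate replicates, 25 of the 35 members were called, beside 77.7% of all genes.

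Promoter windows were taken from RefSeq (GRCm38.p6, 250 bases before to 50 after the start) to show the sequence in front of subunits that were lower in each line. A window was found for 30 of the 37 genes, and Psma8, Psmb1, Psmb2, Psmb7, Psmc3, Psmd3 and Psmd7 had none. These motifs were searched on both strands, where matches of different motifs may overlap: TGACNNNGC, the core of the antioxidant response element to which the Nfe2l1 protein binds, CCAAT, and CCGGAAG, a core bound by ETS factors. They are in capitals in the windows of Psmb6 (a catalytic subunit), Psma2 (an alpha subunit) and Psmd13 (a lid subunit).
Psmb6, chr11:70525107-70525406, plus strand: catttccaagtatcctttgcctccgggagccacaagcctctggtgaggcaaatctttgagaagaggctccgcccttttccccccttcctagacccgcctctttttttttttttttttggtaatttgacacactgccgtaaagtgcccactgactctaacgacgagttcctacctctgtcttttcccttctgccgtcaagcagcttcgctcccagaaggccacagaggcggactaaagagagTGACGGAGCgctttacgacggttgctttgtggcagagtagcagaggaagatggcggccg
Psma2, chr13:14612992-14613291, plus strand: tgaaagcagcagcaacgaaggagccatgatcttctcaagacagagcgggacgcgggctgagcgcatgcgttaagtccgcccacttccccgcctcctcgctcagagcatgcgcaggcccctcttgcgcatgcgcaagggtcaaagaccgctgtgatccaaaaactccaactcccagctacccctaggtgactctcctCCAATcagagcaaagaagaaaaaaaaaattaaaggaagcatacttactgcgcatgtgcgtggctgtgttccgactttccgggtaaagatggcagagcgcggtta
Psmd13, chr7:140882144-140882443, plus strand: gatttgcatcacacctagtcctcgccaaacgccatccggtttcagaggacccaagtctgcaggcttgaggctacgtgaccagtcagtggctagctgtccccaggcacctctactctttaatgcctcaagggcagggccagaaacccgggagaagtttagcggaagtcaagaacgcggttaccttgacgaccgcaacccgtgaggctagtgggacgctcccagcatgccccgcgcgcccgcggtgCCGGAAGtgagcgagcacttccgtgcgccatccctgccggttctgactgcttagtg
Counted by window, with 2 windows each for Psma6 and Psmc2 and one for the barely detected Psmb11, TGACNNNGC was present in 2 of 13 core windows (Psmb5 and Psmb6) and 2 of 15 cap windows (Psmc6 and Psmd12), beside 12.4% of all 32851 windows. CCAAT was present in 7 of 13 core windows, that of Psmb11 among them, and 4 of 15 cap windows, beside 37.4%. CCGGAAG was present in 1 of 13 core and 10 of 15 cap windows, beside 8.9%. A match of letters is a description of the window and not a binding site.

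The genes around the particle were examined list by list. Of the factors that set proteasome gene expression, Ddi2 and Nfe2l1 were higher with rDKK3 in all 3 lines, as were 14.7% of all genes. Ddi2 was at 71.8 and 64.7 CPM untreated and 114 and 99.5 treated in A, 89.8 and 85.3 untreated and 120.1 and 114 treated in B, and 104 and 97.5 untreated and 167 and 149 treated in C. Its treated libraries lay above the untreated ones in every line, as in 5.31% of all genes, with a log2 fold change of 0.58 (SE 0.11, adjusted p = 0.597 in edgeR). Nfe2l1 was at 286 and 279 CPM untreated and 441 and 420.03 treated in A, 603 and 577 untreated and 660.2 and 645 treated in B, and 590.02 and 578 untreated and 753 and 754 treated in C. It too did not overlap within a line, at 0.38 (SE 0.14, adjusted p = 0.597 in edgeR). Ngly1, which processes the same factor, and the related Nfe2l2 were at -0.10 and -0.13 with lines in both directions. None of the 4 passed the adjusted threshold in edgeR, while DESeq2 on the same sums called Ddi2 (adjusted p = 0.0379), and the adjusted p of Ddi2 was 1 in edgeR without the line block.

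Among the partners, Sem1, the smallest cap subunit, was lower in each line, as were 18.2% of all genes. It was at 88.9 and 86.1 CPM untreated and 65.8 and 69.5 treated in A, 136 and 150.3 untreated and 103 and 108 treated in B, and 86.0 and 82.7 untreated and 59.4 and 61.1 treated in C. Its treated libraries lay below the untreated ones in every line, as in 8.52% of all genes (log2 fold change -0.42, SE 0.10, adjusted p = 0.597 in edgeR). The ubiquitin receptor Adrm1 was at 0.04 and the deubiquitinases Uchl5 and Usp14 at -0.09 and -0.08. Of 5 chaperones of 20S assembly, Psmg1, Psmg3 and Psmg4 were lower in all 3 lines (-0.25, -0.17 and -0.13 over the lines), against 18.2% of all genes. Psmg2 was higher in all 3 (0.13), against 14.7% of all genes, and Pomp was at 0.10 in A, -0.13 in B and -0.58 in C. The activators Psme3 and Psme4, of a list of 5, were higher in all 3 lines, at 0.26 (0.02 in A) and 0.11, against 14.7% of all genes. The inhibitor Psmf1 was at 0.07. Of the 11 genes of ubiquitin supply and substrate delivery, only Nploc4 was higher in all 3 lines (0.19), against 14.7% of all genes, and the list's median was -0.02. No gene of these lists was called in the edgeR fit over the 3 lines. DESeq2 on the same sums called Ddi2 only, against 96 of all 15214 genes tested.

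The inducible counterparts of the catalytic subunits moved by line. Psmb10 was at 9.70 and 13.3 CPM untreated and 23.6 and 24.0 treated in A, 12 and 10.7 untreated and 11.3 and 8.91 treated in B, and 14.3 and 15.1 untreated and 9.26 and 9.29 treated in C. It was higher by 1.01 in A, without overlap, and at -0.67 in C, without overlap, and overlapped in B. Psmb8 and Psmb9 were also higher in A, by 1.42 and 1.49, at no more than 3.95 CPM, and Psmb8 was near or under the 3-count limit in all libraries of C. The interferon-inducible activators Psme1 and Psme2 had the same order, at 0.22 and 0.45 in A, -0.15 and -0.15 in B and -0.68 and -0.45 in C. The interaction test called all 3 inducible subunits, as it did 49.3% of all genes.

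**Figure D5:**
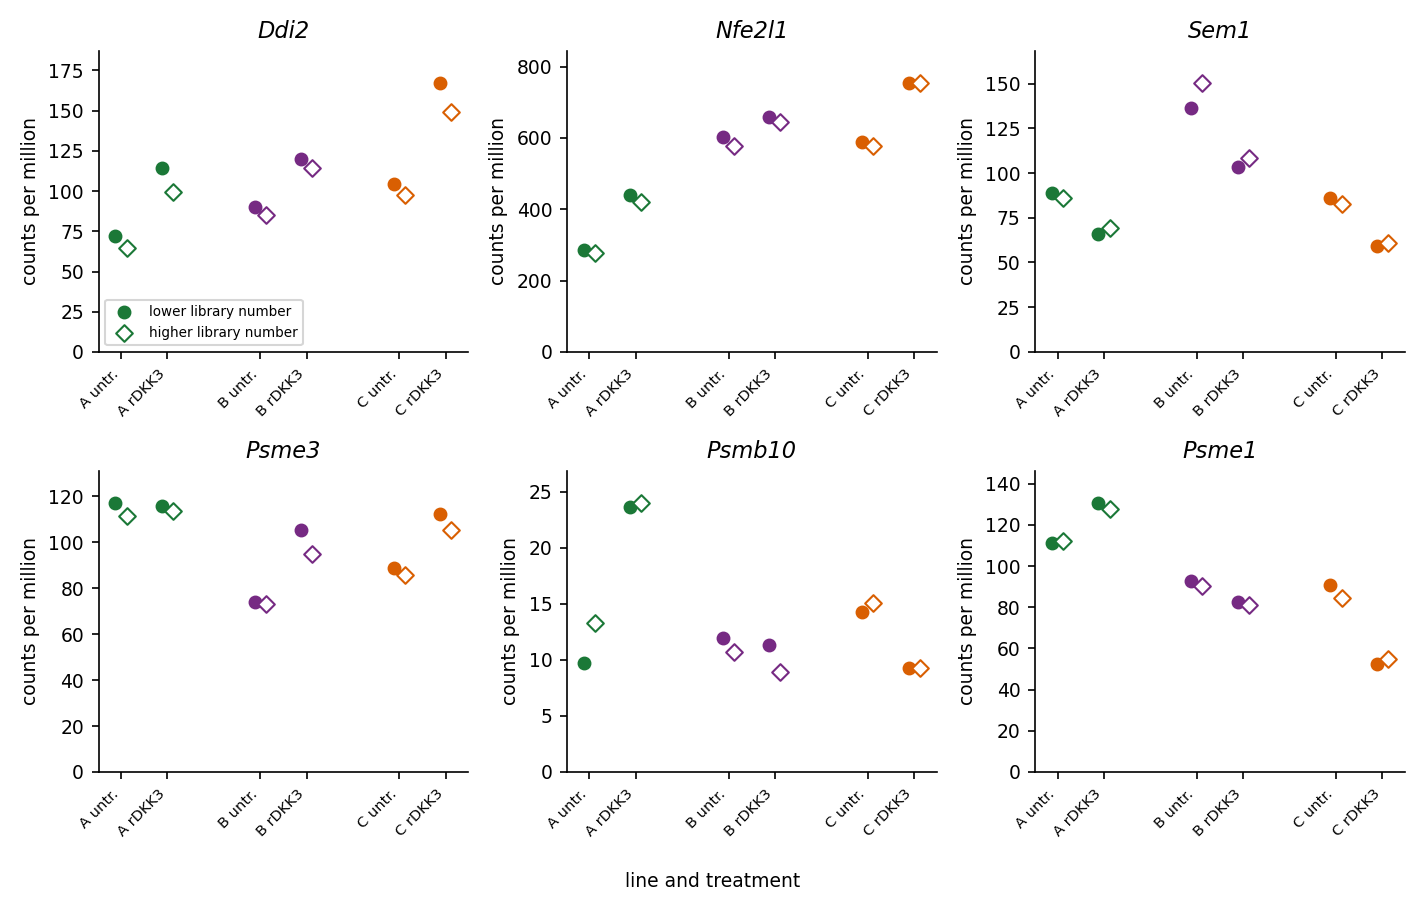
CPM in every library for 6 genes around the particle, by line and treatment, with filled points for the lower and open points for the higher library number. Ddi2 and Nfe2l1 are higher and Sem1 lower with rDKK3 in each line, Psme3 is higher in B and C, and Psmb10 and Psme1 are higher in A and lower in C.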

How the data were processed

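RNA of 3 Dkk3-null mouse tumor cell lines, untreated and with rDKK3, was sequenced on strand-specific paired-end libraries of 50-base reads. The authors aligned reads with STAR 2.7.9a to GRCm39 and counted them per gene of GENCODE with GenomicAlignments (union mode); the submitters' notes also name DESeq2 1.38.0, Picard 2.19.2 and R 4.2.2. The deposited values are raw counts per gene and library, not normalized. From them, counts were summed over the 2 libraries of each line and condition and tested with edgeR 4.0.16 (R 4.3.3): TMM scaling, filterByExpr by treatment, quasi-likelihood fit on line and treatment, and Benjamini-Hochberg adjustment over all 15214 genes tested, called at 0.05. Lines were compared with an F test over both line coefficients of that fit. The line-dependent response and the library number were tested over the 12 libraries. CPM values of members and of the other gene lists use TMM-adjusted totals, and those of cell markers and detection limits raw totals. Values per line are log2 CPM differences with a prior count of 2. Each SE was calculated back from the test, as the absolute log2 fold change over the square root of its F statistic. Coding sequences of the canonical GENCODE M39 transcripts were aligned to GRCm39 with blastn (BLAST+ 2.17.0), and copies at 95% identity or more over at least 50% of the coding sequence were kept. The scripts were tested on simulated data with changes far larger than those of the core, which says nothing of differences that small.

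Deviations of the 6 sums correlated at 0.818 on average within a line and -0.41 between lines, so samples were paired by the line given in the labels. Nothing in the sources used here says that the 2 libraries of a pair came from separate cultures. Alternatives were fits of the 12 libraries, no block, DESeq2 1.42.0, other scalings, no filter, thinning to equal depth and leaving out each line. Values per library are printed for the catalytic subunits, Psmd14, the 2 highest and 2 lowest fold changes and the 2 largest line F values in each of core and cap; Psmd8, Psmd10 and genes around the particle were added after their values were seen. Part of the lines' genotype is not reported here. The members and lists were chosen with earlier results of these data known.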

Additional observations from a re-analysis of the deposited data

Results flagged for a closer look

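The response to rDKK3 differed between the lines for 13 of the 35 tested genes, against 49.3% of all genes, by the interaction of line and treatment over the 12 libraries in edgeR, which takes the libraries of a pair as separate replicates. In the core, Psma2 (adjusted p = 0.00333), Psma7 (0.0411), Psmb1 (0.015) and Psmb4 (0.00221) were lower in each line by different amounts. In the cap, the sign was not the same in all lines for Psmc1 (adjusted p = 0.037; log2 fold changes -0.08, 0.03 and -0.17 in A, B and C), Psmc3 (0.00767; -0.02, 0.03 and -0.25), Psmc5 (0.00562; 0.24, 0.05 and -0.12) and Psmd1 (0.0408; 0.06, -0.08 and -0.30). The same was true of Psmd7 (adjusted p = 0.00495; 0.02, -0.15 and 0.12), Psmd8 (5.39e-05; -0.39, -0.12 and 0.24) and Psmd11 (0.00366; -0.07, 0.05 and 0.37). Outside the particle, the assembly chaperones Psmd9 (adjusted p = 0.0058; -0.08, 0.08 and -0.44) and Psmd10 (1.2e-04; 0.33, -0.13 and -0.86) also differed by line. Treated libraries were shallower than untreated ones in each line, and the part of depth in these differences was not tested.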

How the results depend on the processing

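The core subunits stayed lower, 14 of 14, in each of 11 alternatives, and the medians of core and cap kept their sign, that of the cap running from -0.0979 without the filter to -0.023 without C. Single values moved by over 1.5 times: without B, Psma6 was at -0.089 and Psmb7 at -0.077, without C, Psma4 was at -0.0489 and Psmb4 at -0.1185, and after thinning Psmb5 was at -0.0402, Psma4 at -0.0559, Psma1 at -0.0633, Psmd14 at -0.0812 and Psmd13 at -0.1563. Without the filter, Psmc5 was at 0.012, Psmd11 at 0.0749 and Psma4 at -0.1329. The number of genes called for rDKK3, 1 in the sums, was 2744 with the 12 libraries as separate replicates, 3124 with the library number added, 0 without the line as a replicate block (106 at an unadjusted p under 0.05 in edgeR), 96 in DESeq2, 90 without the filter, 0 after thinning to equal depth (1145 unadjusted), and 0 to 2 when a line was left out. In those 2 fits of the 12 libraries, 7 and 9 core subunits were called instead of 0, and 2 and 3 cap subunits, all lower, beside 10.1% and 11.9% of all genes called lower. Genes called between lines, 4899 in the sums, were 11790 over the 12 libraries and 1502 to 5173 when a line was left out, the lowest without B. Members called between lines, 3 in the sums, were 25 over the 12 libraries (beside 77.7% of all genes), 5 in DESeq2 (beside 39.5%) and 0 to 7 when a line was left out. The interaction called 22 members, beside 61.9% of all genes, with the library number in the model, in place of 13 beside 49.3%. Psmd4, at 0.00, changed sign to -0.0105 and -0.0103 in the fits of 12 libraries and -0.0437 without the filter, and ran from -0.023 to 0.033 when a line was left out. On leaving out a line, Psmd11 ran from -0.0101 without C to 0.2146 without A, and Psmc5 from -0.0314 without A to 0.1399 without C. The cause of these shifts was not tested, except that fits of 12 libraries take their spread from libraries of the same sample. With 3 lines, differences of the size seen in the core (median -0.19) did not pass the threshold.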
